A study of Mus musculus with 12 samples.

Results

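Dexamethasone (Dex), a synthetic glucocorticoid, was given at 100 nM for 6 h to wild-type (WT) mouse embryonic fibroblasts (MEFs), and the mRNA response was read as the difference between 3 Dex arrays and 3 vehicle arrays. These samples were picked by title and are 6 of the 12 one-colour Agilent arrays of the series. The other 6 arrays, 3 vehicle and 3 Dex at the same dose and time, came from MEFs homozygous for the GR-C3 knockin, an allele of Nr3c1 in which the start codon of the GR-C3 isoform of the glucocorticoid receptor (GR) is kept and the ATG codons of the other translational isoforms are ATC. MEFs are a mixed primary culture grown from embryo tissue. All groups came from E12.5 embryos on a C57Bl/6 background, the knockin mice descend from 1 embryonic stem cell clone, and the WT cells carry both normal Nr3c1 alleles. The labels call the samples biological replicates without naming embryos or cultures, so p-values measure only how far these samples spread, which may be technical. In these bulk cultures fewer cells of a type and less RNA per cell cannot be told apart.

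Glucocorticoids bind the GR, the product of Nr3c1, which is held in the cytoplasm by heat shock protein chaperones until the ligand arrives. The bound receptor moves to the nucleus, binds palindromic response elements near genes it induces, and lowers many inflammatory genes that AP-1 and NF-kappaB drive. In fibroblasts glucocorticoids are known to lower cytokines, chemokines and hyaluronan synthesis and to alter the matrix these cells make.

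Levels are log2 processed intensities minus the 75th percentile of the non-control probes of the same array, so that a level of 0 is that percentile. A change is the Dex mean minus the vehicle mean on this log2 scale, given ± its standard error. A gene was called, and is said to have risen or fallen, where the Benjamini-Hochberg adjusted p of limma over all 20829 genes was under 0.05. The scanner called 72.2 to 78.3% of probes well above background on each WT array, and precision is limited by how few arrays there are. All 14 fibroblast markers tested were well above background on the 6 arrays. Their summed linear level was 1.12e+03 on the array labelled vehicle replicate 1, 1.21e+03 to 1.29e+03 on vehicle replicates 2 and 3 and 1.25e+03 to 1.57e+03 on the Dex arrays. In the same order the 11 macrophage and leukocyte markers summed to 7.09, 8.68 to 8.69 and 6.69 to 7.67, the 9 endothelial markers to 2.08, 3.37 to 3.87 and 3.24 to 3.58, and the 7 epithelial markers to 1.62, 1.34 to 1.42 and 1.33 to 1.69. The 10 neural markers summed to 8.47, 6.33 to 6.55 and 6.79 to 8.16, the 11 skeletal muscle markers to 45.7, 37.9 to 44.1 and 43.5 to 53.6, the 11 cartilage markers to 56, 48 to 49.2 and 53.7 to 63.4, and the 8 erythroid markers to 0.622, 0.449 to 0.513 and 0.502 to 0.582. With vehicle replicates 2 and 3, limma called 2 fibroblast markers higher, 2 leukocyte, 1 endothelial and 1 neural marker lower, 1 epithelial marker in each direction, 1 cartilage marker higher and 0 muscle and erythroid markers. At an unadjusted p under 0.05, 6 cartilage markers were higher and 0 lower, 1 muscle marker was lower and 0 erythroid markers moved.

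The array labelled WT vehicle replicate 1, called vehicle 1 from here on, stood apart from its group. Across genes, which are not independent, its levels correlated at 0.9832 and 0.9833 with vehicle replicates 2 and 3, at 0.9892, 0.9875 and 0.9891 with the 3 Dex arrays, and replicates 2 and 3 correlated at 0.9978 with each other. Vehicle replicates 2 and 3 correlated with Dex replicate 1 at 0.9922 and 0.9921, above any value of vehicle 1. They gave 0.9868 and 0.9844 with Dex replicate 2, and 0.9887 and 0.9882 with Dex replicate 3. Over all genes vehicle 1 was thus not closer to every Dex array than they were. For vehicle 1, the position between the vehicle level, set at 0 as the mean of replicates 2 and 3, and the Dex level, set at 1, had a median of 1.06 (quartiles 0.84 to 1.3) over the genes that rose without it and of 0.88 (quartiles 0.55 to 1.22) over those that fell. It was the only array on its slide and the only array read on its scan day, so that array, slide and scan day cannot be told apart. Results are therefore given with all 3 vehicle arrays (12 arrays in the fit) and with vehicle replicates 2 and 3 only (11 arrays in the fit). A number in square brackets after a change is the change of that gene with all 3 vehicle arrays, printed where the gene is first given a change, and none of the bracketed changes was called. Leaving the array out was decided from its values, and the p-values of the 11-array fit do not include that decision.

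With all 3 vehicle arrays, limma called 25 genes (0.12% of 20829), of which 8 rose (0.0384%) and 17 fell (0.0816%). All 25 were called in the same direction with vehicle replicates 2 and 3. At an unadjusted p under 0.05 there were 3466 genes (16.6%), of which 1483 were higher (7.12%) and 1983 lower (9.52%). The 3 Dex arrays lay above all 3 vehicle arrays for 1237 genes (5.94%) and below them for 1869 (8.97%). With normexp background correction in place of the scanner's own, 19 genes rose and 11 fell, which turned the balance from 32% higher to 63.3% higher. Single arrays moved this count: 0 genes were called without vehicle replicate 2 or 3, Dex replicate 2 or 3, or any of 4 GR-C3 arrays (2270 to 3129 at an unadjusted p under 0.05), 3 or 5 without either of the other GR-C3 arrays, 92 without Dex replicate 1 and 2542 without vehicle 1.

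The genes called with all 12 arrays were mostly those on which vehicle 1 lay near the other vehicle arrays. Its position was under 0.5 for 24 of the 25, with a median of 0.24. This follows in part from the fit, where vehicle 1 was in the vehicle group and a distant vehicle 1 widens the spread. The position therefore describes these calls and is no separate result. Genes named from the 25 were also picked for groups of 3 that do not overlap. Tcim, an intracellular modulator of Wnt/beta-catenin signalling, had levels of -0.26, -1.7 and -1.59 on the 3 vehicle arrays and 1.01, 1.06 and 0.75 on the Dex arrays. For Tcim vehicle 1 was the highest of its group and slightly nearer the Dex level than the vehicle level, and still lay below every Dex array. The 12-array change of Tcim was 2.12 ± 0.30 (adjusted p = 0.0379), and the 11-array change was 2.58 ± 0.11 (5.98-fold). Ackr4, an atypical receptor that scavenges chemokines, lay at -2.45, -2.64 and -2.45 on vehicle and at -1.29, -1.52 and -1.4 on Dex, with tight and separate groups. Its change was 1.12 ± 0.12 (adjusted p = 0.0241), the smallest adjusted p among the genes that rose. Hspb8, a small heat shock protein that works with Bag3 in chaperone-assisted autophagy, lay at 2.8, 2.35 and 2.52 against 3.47, 3.64 and 3.54, a change of 1.0 ± 0.13 (adjusted p = 0.0379).

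Il1rl1, the receptor of interleukin 33, rose by 0.82 ± 0.12 (adjusted p = 0.0379), from 2.4, 2.4 and 2.62 to 3.39, 3.39 and 3.11. Selenop, the secreted selenium carrier, rose by 0.89 ± 0.13 (adjusted p = 0.0379). Pnp, which splits purine nucleosides, rose by 0.66 ± 0.098, and Fam89a by 1.43 ± 0.20 (adjusted p = 0.0379 for both). Within slide 2, which held vehicle replicates 2 and 3 and 1 of the WT Dex arrays, Selenop and Pnp were not called.

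Among the genes that fell with all 12 arrays, Pde4b, a cAMP-degrading phosphodiesterase, lay at -2.13, -1.87 and -1.74 on vehicle and -2.97, -3.07 and -3.17 on Dex, and vehicle 1 was the closest of its group to the Dex arrays. Its change was -1.16 ± 0.13 (adjusted p = 0.0241). Dkk2, a secreted modulator of Wnt coreceptors, lay at -1.23, -0.84 and -0.69 and at -1.84, -2.11 and -2.06, a change of -1.08 ± 0.14 (adjusted p = 0.0379). Ptpre, a receptor-type tyrosine phosphatase, went from 0.3, 0.41 and 0.41 to -0.51, -0.49 and -0.87, again with no overlap, and fell by 0.99 on the log2 scale. Prtg, an embryonic receptor of the immunoglobulin family, changed by -1.08 ± 0.16, Hoxc6, a homeobox factor of axial patterning, by -0.72 ± 0.11, Cdc14a, a cell cycle phosphatase, by -0.84 ± 0.13, and Lingo4 by -0.69 ± 0.099, with adjusted p of 0.0379 to 0.0416. Ccl4, a chemokine, was not well above background on any Dex array and was at least 1.66-fold lower there with 3 vehicle arrays. Tdrd9, a helicase of the germ line, was at least 1.19-fold lower by the same bound, and Spata5l1 was not well above background on any WT array, so no fold is given. With normexp none of these 3 was lower. In all, 5 of the 17 genes that fell were not well above background on any Dex array.

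With vehicle replicates 2 and 3 only, limma called 2542 genes (12.2% of 20829). Of these, 1128 rose (5.42%) and 1414 fell (6.79%). The larger changes leaned to the higher side: 385 genes rose at least 2-fold (1.85%) and 216 fell at least 2-fold (1.04%). At an unadjusted p under 0.05, 11.5% of genes were higher and 15.8% lower. The Dex arrays lay above both vehicle arrays for 4128 genes (19.8%) and below both for 4783 (23%). Within slide 2, with 1 Dex array against the 2 vehicle arrays, 601 genes rose and 418 fell, and 935 of the 2542 calls remained. Dex replicates 2 and 3 were on slide 3, which held no WT vehicle array, so for them slide and Dex cannot be told apart. Within slide 2 the spread is taken from the other groups and the Dex array is replicate 1. A call lost within slide 2 therefore rests on 1 array. Without Dex replicate 1 the calls of the whole comparison rose, and the cause was not tested. With the WT arrays alone in the fit, 665 rose and 591 fell. With normexp background correction 1026 rose and 878 fell, which moved the share of higher calls from 44.4% to 53.9%. Without vehicle replicate 2 there were 563 rises and 391 falls, without vehicle replicate 3 596 and 439, and without Dex replicate 1 2242 and 2177; where 1 vehicle array is left, its spread is taken from the other groups.

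**Figure D1:**
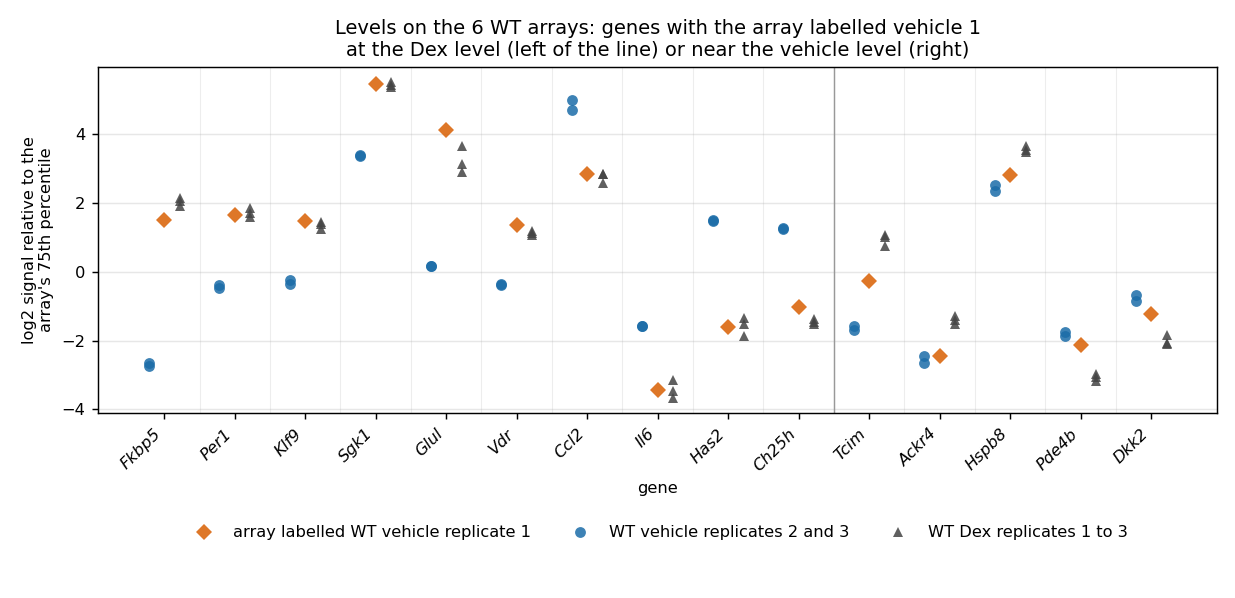
Levels (log2 intensity over the array's 75th percentile, vertical axis) of 15 genes on the 6 WT arrays: the orange diamond is the array labelled vehicle 1, blue circles are vehicle replicates 2 and 3, and grey triangles are Dex replicates 1 to 3. For the genes left of the line, among them Fkbp5, Sgk1 and Has2, the diamond lies with the triangles. On the right the diamond lies nearer the circles for Ackr4, Hspb8, Pde4b and Dkk2. For Tcim, also on the right, it lies between circles and triangles, slightly nearer the triangles.

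Glucocorticoid-induced genes had the highest share of calls among the 44 gene lists. The lists were made with earlier results of these data known, so this share is a description and no independent test. Over all genes 5.42% rose and 6.79% fell without vehicle 1, and the counts of each list stand beside these shares. Counts within slide 2 do not, because fewer genes were called there. Of 39 genes known to be induced by glucocorticoids in other cells, 32 rose and 1 fell without vehicle 1, 25 of them at least 2-fold, and the median change was 1.41 against 0.02 over all genes. With all 3 vehicle arrays the median was 0.88, and 27 were higher and 1 lower at an unadjusted p under 0.05, while limma's adjusted p called 0 of them. Within slide 2, 28 rose and 1 fell. Fkbp5, a cochaperone that lowers GR affinity for its ligand, had levels of -2.64 and -2.74 on vehicle replicates 2 and 3, 1.51 on vehicle 1 and 2.15, 1.9 and 2.06 on the Dex arrays. Vehicle 1 lay just below the Dex arrays and far above the other vehicle arrays. The change was 4.73 ± 0.15 (adjusted p = 1.32e-07) with vehicle replicates 2 and 3 and 3.33 ± 0.86 (adjusted p = 0.13) with all 3, although the groups of 3 did not overlap.

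Per1, a repressor of the circadian clock, lay at -0.39 and -0.46 on vehicle replicates 2 and 3, 1.66 on vehicle 1 and 1.58, 1.85 and 1.72 on Dex. Here vehicle 1 lay inside the Dex range, and the change was 2.14 ± 0.12 (adjusted p = 5.22e-06) without it and 1.45 ± 0.44 (adjusted p = 0.17) with it. Sgk1, a kinase that regulates sodium transport, showed 3.4 and 3.35, 5.44 and 5.5, 5.36 and 5.43 in the same order. Vehicle 1 was again within the Dex range, and the change was 2.06 ± 0.10 [1.37] (adjusted p = 2.19e-06). Klf9, a zinc finger repressor, rose from -0.25 and -0.37 to 1.23, 1.4 and 1.43 with vehicle 1 at 1.46, a change of 1.66 ± 0.11 [1.07] (adjusted p = 1.69e-05). Glul, glutamine synthetase, rose by 3.07 ± 0.20 [1.75] (8.39-fold) with vehicle 1 above all Dex arrays at 4.13.

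Beside Fkbp5, the largest rises without vehicle 1 included those of Slc45a3, a solute carrier (5.39 ± 0.15 [3.71], 41.8-fold), Lcn2, a secreted iron-siderophore carrier (5.2 ± 0.21 [3.48]), Fam107a, an actin-binding protein (4.74 ± 0.14 [3.23]), Rgcc, a cell cycle regulator (4.37 ± 0.13 [2.82]), and the sulfotransferase Sult1a1 (4.1 ± 0.13 [2.69]). Slc45a3 had levels of -4.09 and -4.12, then 0.92 on vehicle 1 and 0.96, 1.5 and 1.38 on Dex. Klk1b16, a kallikrein whose family has near-identical copies, and Nat3, an arylamine acetyltransferase, were not well above background on vehicle replicates 2 and 3 and were at least 10.8-fold and 11.1-fold higher on the Dex arrays. Klf15, a regulator of fuel use, rose by 2.87 ± 0.17 [1.94], Pdk4, which restrains pyruvate oxidation, by 2.5 ± 0.12 [1.8], and Cebpd, a C/EBP transcription factor, by 2.25 ± 0.12 [1.47]. Rgs2, which limits Gq signalling, rose by 2.1 ± 0.11 [1.36], Nfkbia, the NF-kappaB inhibitor, by 1.41 ± 0.16 [0.73], and Sesn1, a stress-induced TORC1 inhibitor, by 1.22 ± 0.085 [0.66]. Dusp1, the MAP kinase phosphatase often used as a marker of GR activity, rose by 0.84 ± 0.11 [0.56] and Txnip, the thioredoxin-binding protein, by 1.05 ± 0.16 [0.76]. Angptl4, which also is a known GR target, was the 1 member that fell (-0.72, chosen after its value was seen). Ddit4, Bcl6, Anxa1, Hif3a, Arrdc2 and Acsl1 did not pass the test, with changes of -0.01 to 0.43.

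Because the receptor binds palindromic elements, the promoters of the genes that rose were searched on both strands for a form of the glucocorticoid response element, made of GNACA, any 3 bases (NNN) and TGTNC. Promoters were taken from RefSeq (GRCm38.p6) as 250 bases before to 50 bases after the start of each gene. The motif was found in 0.498% of 13256 genes tested that have a promoter in that table. It was in 2.06% of the 776 that rose, in 4.98% of the 261 that rose at least 2-fold, and in 15.7% of the 51 that rose at least 4-fold. Of the genes that fell, 0.343% of 874 held it, and 0 of the 111 that fell at least 2-fold did. Genes that have several promoters in the table count where any of them matches; with the first promoter alone the shares were 0.415% of all and 9.8% of those that rose at least 4-fold. A match describes these letters only, and the shares are given with no test.

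The motif lay in a promoter of 7 of the 98 named genes that rose and have one in the table. They are shown as genes with both a match and a measured rise, from the largest change to the smallest. Binding of the receptor was not measured. Capitals mark the match, and each sequence reads 5′ to 3′ on the strand of the gene. Fam107a (change 4.74 ± 0.14) is at chr14:8309728-8310027 on the minus strand with the first base of the match at -120 from the gene start. Serpina3n (change 3.35 ± 0.18 [2.41]) is at chr12:104406458-104406757, plus strand, with the match at -78. Mt1 (change 2.96 ± 0.20 [1.9]) is at chr8:94178839-94179138, plus strand, with the match at -94. Trim63 (change 2.13 ± 0.16 [1.42]) is at chr4:134314870-134315169, plus strand, with the match at -208. Sgk1 (change 2.06 ± 0.10) is at chr10:21993640-21993939, plus strand, with the match at -188. Map3k6 (change 1.85 ± 0.092 [1.12]) is at chr4:133240568-133240867, plus strand, with the match at -181. Txnip (change 1.05 ± 0.16) is at chr3:96557707-96558006, plus strand, with the match at -172.
Fam107a: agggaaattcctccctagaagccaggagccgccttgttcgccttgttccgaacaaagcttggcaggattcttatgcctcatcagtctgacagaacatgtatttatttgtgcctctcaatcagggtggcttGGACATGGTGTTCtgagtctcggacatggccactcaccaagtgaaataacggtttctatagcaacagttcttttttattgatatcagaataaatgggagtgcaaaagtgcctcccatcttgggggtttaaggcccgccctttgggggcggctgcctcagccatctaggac
Serpina3n: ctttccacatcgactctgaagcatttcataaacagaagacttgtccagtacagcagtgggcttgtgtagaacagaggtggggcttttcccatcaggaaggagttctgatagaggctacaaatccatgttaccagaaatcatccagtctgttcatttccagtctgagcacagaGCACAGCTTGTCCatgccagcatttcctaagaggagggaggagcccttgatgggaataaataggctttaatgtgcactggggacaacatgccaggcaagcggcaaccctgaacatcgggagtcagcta
Mt1: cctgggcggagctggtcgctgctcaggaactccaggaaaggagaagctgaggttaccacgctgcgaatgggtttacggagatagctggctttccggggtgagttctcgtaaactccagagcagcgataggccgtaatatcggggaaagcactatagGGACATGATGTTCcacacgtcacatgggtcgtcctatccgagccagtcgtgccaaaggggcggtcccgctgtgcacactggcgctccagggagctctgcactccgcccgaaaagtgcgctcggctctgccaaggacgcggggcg
Trim63: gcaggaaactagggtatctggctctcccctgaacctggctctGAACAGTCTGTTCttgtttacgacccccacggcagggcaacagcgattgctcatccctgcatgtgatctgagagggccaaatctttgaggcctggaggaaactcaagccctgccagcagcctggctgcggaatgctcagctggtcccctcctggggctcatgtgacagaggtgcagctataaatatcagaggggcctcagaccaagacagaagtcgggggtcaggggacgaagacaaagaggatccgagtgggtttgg
Sgk1: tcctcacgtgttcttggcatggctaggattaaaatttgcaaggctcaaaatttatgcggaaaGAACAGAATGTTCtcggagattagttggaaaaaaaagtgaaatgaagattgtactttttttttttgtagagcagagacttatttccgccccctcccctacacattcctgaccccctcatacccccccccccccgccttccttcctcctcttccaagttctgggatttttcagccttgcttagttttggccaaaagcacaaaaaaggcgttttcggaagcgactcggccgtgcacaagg
Map3k6: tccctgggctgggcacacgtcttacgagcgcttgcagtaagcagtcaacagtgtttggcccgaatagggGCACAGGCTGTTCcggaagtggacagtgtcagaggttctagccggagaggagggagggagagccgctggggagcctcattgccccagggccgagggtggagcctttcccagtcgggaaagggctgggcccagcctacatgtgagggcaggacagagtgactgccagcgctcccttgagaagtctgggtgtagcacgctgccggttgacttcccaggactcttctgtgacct
Txnip: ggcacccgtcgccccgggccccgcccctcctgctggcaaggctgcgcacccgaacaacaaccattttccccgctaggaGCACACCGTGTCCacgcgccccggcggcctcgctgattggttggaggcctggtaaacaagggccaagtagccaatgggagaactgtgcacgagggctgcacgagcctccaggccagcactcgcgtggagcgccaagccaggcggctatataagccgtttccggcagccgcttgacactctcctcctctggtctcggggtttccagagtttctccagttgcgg

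In these 7 promoters the match read GGACATGGTGTTC in Fam107a, GCACAGCTTGTCC in Serpina3n, GGACATGATGTTC in Mt1, GAACAGTCTGTTC in Trim63, GAACAGAATGTTC in Sgk1, GCACAGGCTGTTC in Map3k6 and GCACACCGTGTCC in Txnip. All match the same palindrome and differ in the spacer and at the free positions. Other motifs were searched in the same way. The cAMP response element TGACGTCA was in 3.07% of all promoters, 1.93% of those of genes that rose, 4.58% of those of genes that fell and 6.31% of those that fell at least 2-fold. The AP-1 motif TGANTCA was in 7.47%, 8.38% and 8.58% of all, risen and fallen genes, in 13.7% of those that rose at least 4-fold and in 11.7% of those that fell at least 2-fold. The single receptor hexamer AGAACA was in 16.4%, 14.8% and 14.2% of all, risen and fallen genes, and in 21.6% and 18.9% of the same large rises and falls. A loose form of the NF-kappaB site, GGG, any 5 bases and CC, was in 66.8%, 76.3% and 66.4%, and in 70.6% and 59.5%.

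The receptor itself fell. Nr3c1 had levels of 1.8 and 1.8 on vehicle replicates 2 and 3, 1.2 on vehicle 1 and 1.27, 1.06 and 1.07 on Dex, so that vehicle 1 lay beside the Dex arrays. The change was -0.67 ± 0.092 (adjusted p = 0.0013) with vehicle replicates 2 and 3 and -0.47 ± 0.15 (adjusted p = 0.188) with all 3, and Nr3c1 was not called when all its kept probes were averaged. Of 23 receptor, chaperone and cofactor genes, 3 rose and 1, Nr3c1, fell, with a median change of 0.05. The 3 that rose did so modestly: Hspa8, the constitutive Hsc70 chaperone (0.44 ± 0.11 [0.44]), Ncoa1, a steroid receptor coactivator (0.42 ± 0.10 [0.06]), and Nrip1, a corepressor (0.41 ± 0.11 [0.17]), whose direction turned when its 3 kept probes were averaged. None of these 3 was called within slide 2, where 0 of the list rose and 1 fell.

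Chemokines fell more often than they rose. Of 21 genes, 10 fell and 1 rose, with a median change of -0.42; with all 3 vehicle arrays the median was -0.33, and 9 were lower and 2 higher at an unadjusted p under 0.05. Ccl2, which draws monocytes, had levels of 5.0 and 4.7 on vehicle replicates 2 and 3, 2.85 on vehicle 1 and 2.84, 2.85 and 2.58 on Dex. Vehicle 1 lay at the Dex level, and the change was -2.09 ± 0.12 (adjusted p = 6.4e-06) without it and -1.43 ± 0.42 (adjusted p = 0.164) with it. Cxcl5, a neutrophil chemokine, changed by -2.17 ± 0.16 [-1.37] and Cxcl10, an interferon-induced T cell chemokine measured above background on 2 of 3 Dex arrays, by -2.3 ± 0.47 [-1.62]. Ccl7, related to Ccl2, changed by -1.06 ± 0.12 [-0.71] and Cx3cl1, a membrane-bound chemokine, by -0.89 ± 0.12 [-0.75]. Ackr4 was the member that rose. Within slide 2, 5 chemokine genes fell and 1 rose, and Cxcl10 was not among the calls. Of the 11 macrophage and leukocyte markers, 2 fell without vehicle 1, and 0 were called within slide 2 or with normexp; their part in the chemokine values was not tested.

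Interleukin 6, an inflammatory cytokine that fibroblasts secrete, gave levels of -1.59 and -1.59 on vehicle replicates 2 and 3, -3.44 on vehicle 1 and -3.46, -3.14 and -3.66 on Dex. Il6 fell by 1.83 on the log2 scale (adjusted p = 2.68e-05) without vehicle 1, and its 12-array change was -1.22 ± 0.40 (adjusted p = 0.191). Il11, of the same family, fell (-1.19 ± 0.12 [-0.96]) as did Socs1 (-0.67 ± 0.099 [-0.54]), a feedback inhibitor of cytokine signalling, whereas Socs2, a related inhibitor, rose (1.59 ± 0.12 [1.0]) together with Pias1, a SUMO ligase (0.58 ± 0.089 [0.27]). The 16 genes of these cytokines and their receptors split into 4 that rose and 3 that fell. In the interleukin 1 and TNF families 4 of 19 rose and 5 fell. Receptors were among those that rose, with Il1rap, the shared accessory chain, at 1.35 ± 0.20 [0.91] and Il1r2, the decoy receptor, at 1.17 ± 0.20 [0.75]. Tnfrsf11b, the secreted decoy osteoprotegerin, fell (-1.81 ± 0.12 [-1.16]) and so did the death receptor Fas (-0.57 ± 0.098 [-0.01]). Within slide 2, Il1r2 and Fas were not called, and 3 of the family rose and 1 fell.

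Among 24 NF-kappaB pathway genes 2 rose and 4 fell. Irak3, a kinase homologue that blocks Toll-like receptor signalling, rose (1.84 ± 0.13 [1.33], adjusted p = 2.29e-05) beside Nfkbia. Nfkbie (-0.82 ± 0.096 [-0.63]) and Relb (-0.69 ± 0.10 [-0.52]), an inhibitor and a subunit of the family, fell, as did Birc3 (-0.45 ± 0.10 [-0.34]), which acts in TNF receptor complexes. In the prostaglandin pathway 3 of 19 rose and 5 fell. Ptgs2, the inducible cyclooxygenase, fell (-1.05 ± 0.21 [-0.69]) with the E2 receptor Ptger4 (-1.2 ± 0.19 [-0.72]), whereas the receptor Ptger3 (1.95 ± 0.14 [1.14]), prostaglandin D synthase Ptgds (1.32 ± 0.17 [0.87]) and prostacyclin synthase Ptgis (1.04 ± 0.10 [0.65]) rose. Within slide 2, 3 genes of this pathway rose and 1 fell, and Ptgs2 and Birc3 were not called.

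Interferon response genes leaned lower, with 8 of 33 falling and 2 rising. Irf1, a transcription factor of this response, lay at 1.87 and 1.82 on vehicle replicates 2 and 3 and 0.59, 0.57 and 0.45 on Dex with vehicle 1 at 0.87, a change of -1.31 ± 0.087 [-0.98] (adjusted p = 1.46e-05). Ifit1 (-1.31 ± 0.18 [-0.97]) and Ifit3 (-0.72 ± 0.094 [-0.36]), which act against viral RNA, and the RNA sensor Ifih1 (-0.75 ± 0.13 [-0.43]) fell, while Isg20, an exonuclease, rose (0.98 ± 0.08 [0.56]). With normexp 4 of the list fell. Complement, acute phase and coagulation genes moved the other way: 10 of 33 rose and 1 fell, with a median of 0.40 (0.17 with all 3 vehicle arrays, 9 higher and 0 lower at an unadjusted p under 0.05). Serpina3n, a secreted protease inhibitor, rose by 3.35 ± 0.18, haptoglobin (Hp) by 2.19 ± 0.19 [1.52], alpha-2-macroglobulin (A2m) by 1.5 ± 0.14 [1.14], ceruloplasmin (Cp) by 1.23 ± 0.13 [0.67] and tissue factor (F3) by 0.9 ± 0.098 [0.64]. Within slide 2, 7 of these rose and 1 fell.

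**Figure D2:**
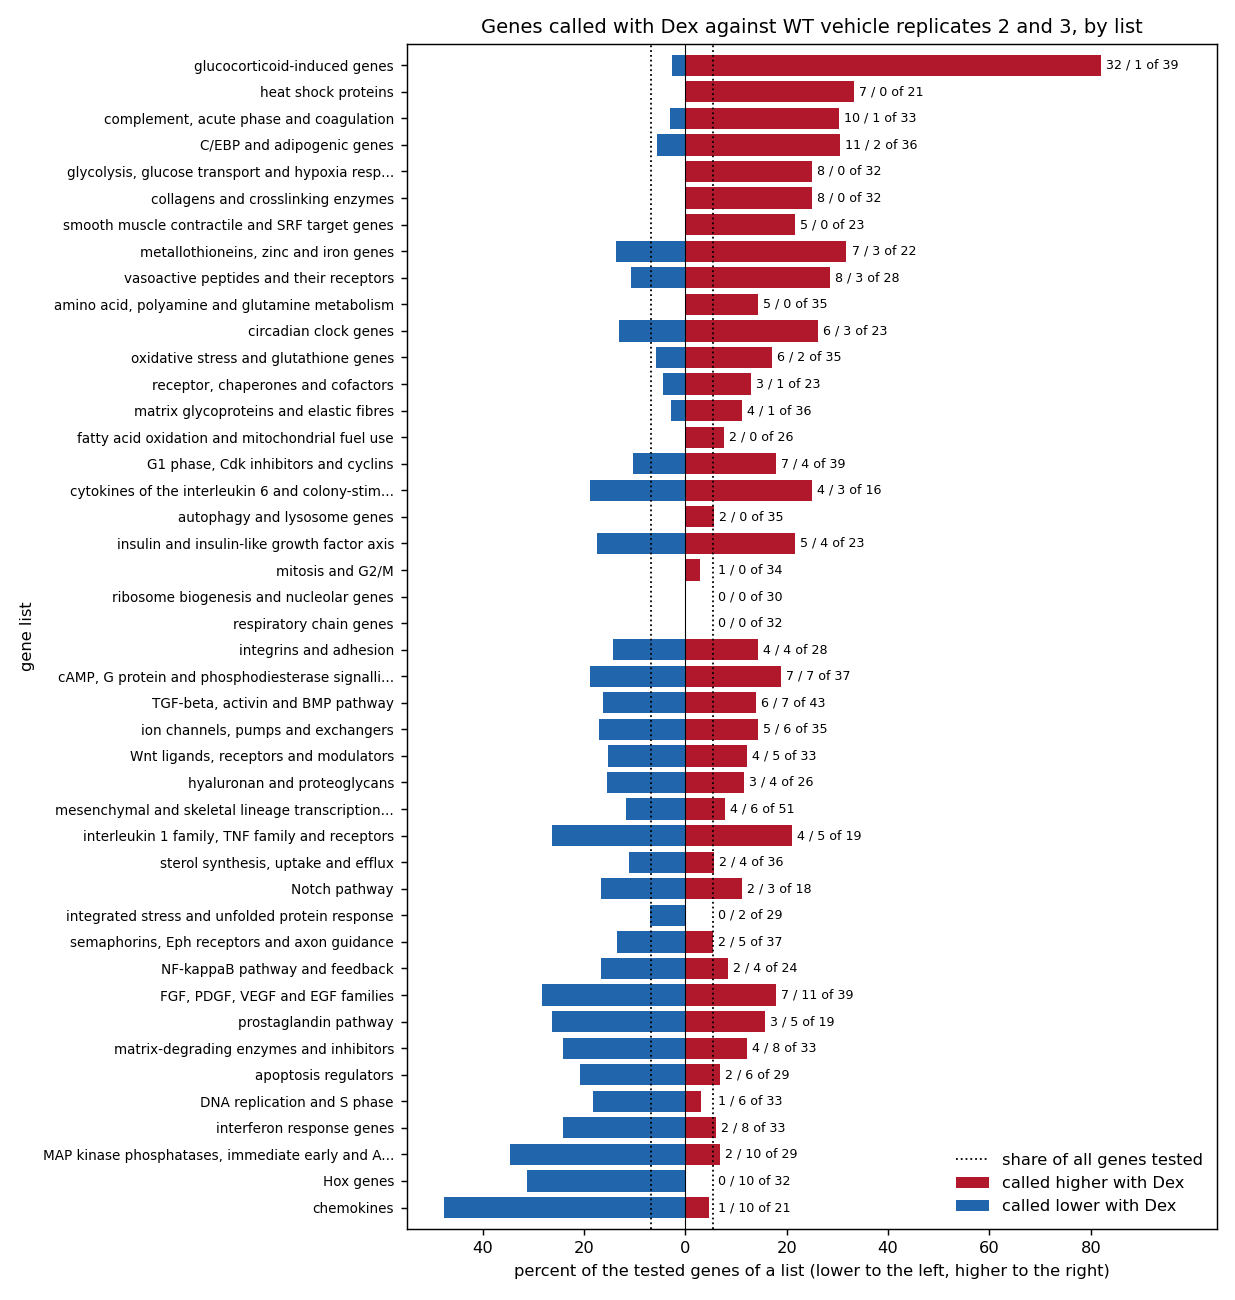
Share of the tested members of each of 44 gene lists that rose (right, red) or fell (left, blue) with vehicle replicates 2 and 3, in percent. Dotted lines mark the share among all genes, 5.42% higher and 6.79% lower; the glucocorticoid-induced list has the longest bar to the right and the chemokine list the longest to the left.

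Immediate early and MAP kinase feedback genes fell more often than they rose, with 10 of 29 lower and 2 higher. Dusp4 (-1.77 ± 0.16 [-0.59]) and Dusp10 (-1.63 ± 0.17 [-1.14]), phosphatases of MAP kinases, fell, in contrast to Dusp1, and so did Fosl1 (-0.78 ± 0.099 [-0.46]), an AP-1 subunit. Fos, another AP-1 subunit, rose from -2.08 and -1.7 to 0.18, -0.46 and -0.13 with vehicle 1 at 0.12, a change of 1.76 ± 0.21 [1.09] (adjusted p = 0.000464). Within slide 2, 3 rose and 6 fell. Of 37 genes of cAMP, G protein and phosphodiesterase signalling 7 rose and 7 fell. Ramp2, which makes the receptor Calcrl a receptor for adrenomedullin, rose (2.68 ± 0.10 [1.58]), while Calcrl fell (-1.03 ± 0.086 [-0.8]). Rgs16, which like Rgs2 shortens G protein signals, fell (-1.25 ± 0.10 [-0.99]), opposite to Rgs2.

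Both hyaluronan synthases named fell. Has2, the main hyaluronan synthase of fibroblasts, had levels of 1.49 and 1.47 on vehicle replicates 2 and 3, -1.6 on vehicle 1 and -1.52, -1.34 and -1.86 on Dex. Vehicle 1 lay with the Dex arrays, and the change was -3.06 ± 0.15 (adjusted p = 1.86e-06) without it and -2.03 ± 0.64 (adjusted p = 0.179) with it. Has1, a second synthase, changed by -1.49 ± 0.13 [-1.03] and was above background on 2 of 3 Dex arrays; it was not called with normexp. Cemip, a hyaluronan-binding protein needed for its breakdown, fell (-0.68 ± 0.11 [-0.56]), whereas Sdc4, a cell surface heparan sulfate proteoglycan, rose (1.44 ± 0.17 [0.74]) with the large chondroitin sulfate proteoglycan Vcan (0.56 ± 0.10 [0.32]). The whole list of 26 had 3 genes that rose and 4 that fell, and a median of 0.14. Cemip was not called within slide 2.

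Collagens and their crosslinking enzymes rose where they moved. Of 32, 8 rose and 0 fell by limma, with 16 higher and 1 lower at an unadjusted p under 0.05; with all 3 vehicle arrays 8 were higher and 0 lower at that unadjusted level. Col11a1, a fibril collagen, went from 3.44 and 3.63 to 4.49, 4.5 and 4.48 with vehicle 1 at 4.38, a change of 0.96 ± 0.093 [0.68] (adjusted p = 0.00014). The basement membrane chains Col4a1 (0.92 ± 0.13 [0.57]) and Col4a2 (0.73 ± 0.14 [0.59]), the crosslinking oxidase Loxl3 (1.09 ± 0.099 [0.61]) and the proline hydroxylase P4ha2 (0.44 ± 0.11 [0.3]) also rose. The main fibril chains did not pass the test, with changes of 0.07 ± 0.15 [0.16] for Col1a1, 0.15 ± 0.15 [0.26] for Col1a2 and 0.04 ± 0.11 [0.04] for Col3a1. Within slide 2 the collagen count was 3 higher and 0 lower, and Col4a2 and P4ha2 were not called. The 11 cartilage markers, which share Col2a1 with the collagen list, had changes of 0.23 to 1.01 with a median of 0.34, and their part in the collagen values was not tested.

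Matrix glycoproteins and elastic fibre genes gave 4 that rose and 1 that fell of 36 (11.1% and 2.78%, against 5.42% and 6.79% of all genes). Eln, tropoelastin (0.96 ± 0.19 [0.71]), Postn, periostin (0.84 ± 0.16 [0.62]), Lama2, a laminin chain (0.68 ± 0.12 [0.5]), and Ccn1, a matricellular protein (0.45 ± 0.081 [0.43]), rose and Ccn4, another of the CCN family, fell (-0.76 ± 0.11 [-0.53]). None of the 4 that rose was called within slide 2, where 0 of the list rose and 2 fell. Among matrix-degrading enzymes and inhibitors 4 of 33 rose and 8 fell. The urokinase receptor Plaur (-0.77 ± 0.10 [-0.62]), tissue plasminogen activator Plat (-0.77 ± 0.14 [-0.51]), the aggrecanase Adamts4 (-0.75 ± 0.14 [-0.57]) and the sheddase Adam19 (-0.7 ± 0.12 [-0.45]) fell.

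Smooth muscle contractile and SRF target genes had 5 that rose and 0 that fell of 23 by limma, with 9 and 0 at an unadjusted p under 0.05. Myocd, the SRF coactivator myocardin, rose by 2.43 ± 0.20 [1.31], from -5.68 and -5.72 to -2.83, -3.49 and -3.48 with vehicle 1 at -2.33. Smooth muscle myosin Myh11 (0.8 ± 0.17 [0.65]), tensin Tns1 (0.73 ± 0.13 [0.49]), filamin C Flnc (0.63 ± 0.11 [0.5]) and leiomodin Lmod1 (0.41 ± 0.099 [0.11]) rose by less, and of the 5 only Myocd was called within slide 2. Of 28 genes of the integrin and adhesion list 4 rose and 4 fell, with Itga5, a fibronectin receptor chain, higher (1.25 ± 0.15 [0.81]) and Itgb3, a vitronectin receptor chain, lower (-1.17 ± 0.12 [-0.91]). Vcam1, an adhesion molecule for leukocytes, went from 2.71 and 2.52 to 1.61, 1.75 and 1.6 with vehicle 1 at 1.52, a change of -0.96 ± 0.095 [-0.6] (adjusted p = 0.000158).

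Secreted growth factors shifted in both directions. Of 39 genes of the FGF, PDGF, VEGF and EGF families 7 rose and 11 fell. The ligands Vegfd (1.52 ± 0.12 [1.02]) and Vegfc (1.32 ± 0.11 [0.78]), which drive lymphatic growth, and the receptor Pdgfra (0.94 ± 0.14 [0.71]) rose, whereas the ligands Pdgfb (-1.75 ± 0.18 [-1.15]) and Fgf5 (-1.72 ± 0.12 [-1.17], above background on 2 of 3 Dex arrays) fell. Within slide 2, 6 of the list rose and 4 fell. In the insulin and insulin-like growth factor axis 5 of 23 rose and 4 fell. Trib1 (1.22 ± 0.11 [0.77]), a pseudokinase, and Igfbp6 (0.71 ± 0.097 [0.3]), which binds IGF2, rose, and Pik3r3, a regulatory subunit of PI3-kinase, fell (-0.91 ± 0.095 [-0.59]).

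In the TGF-beta, activin and BMP pathway 6 of 43 rose and 7 fell. Inhba, the activin A chain, lay at 5.54 and 5.33 on vehicle replicates 2 and 3, 4.62 on vehicle 1 and 4.51, 4.66 and 4.49 on Dex, a change of -0.88 ± 0.13 [-0.61] (adjusted p = 0.00189). Fst, which neutralises activin, rose by 0.97 ± 0.16 [0.32]. The BMP-type ligand Gdf6 (1.61 ± 0.13 [1.18]) and the BMP target Id3 (0.91 ± 0.12 [0.59]) rose, and the stress-induced ligand Gdf15 fell (-0.68 ± 0.091 [-0.62]). For Wnt signalling 4 of 33 genes rose and 5 fell. Beside Tcim, the ligand Wnt11 rose (1.23 ± 0.094 [0.94]), and the Wnt agonist Rspo2 (-1.64 ± 0.11 [-1.0]) and the antagonists Dkk1 (-1.17 ± 0.12 [-0.87]) and Dkk2 (-1.23 ± 0.11) fell. In the Notch pathway 2 of 18 rose and 3 fell. Notch4 rose from -2.96 and -2.92 to -0.2, 0.1 and -0.06 with vehicle 1 at 0.18, a change of 2.89 ± 0.099 [1.85] (adjusted p = 1.87e-07), and the glycosyltransferase Lfng rose (1.5 ± 0.15 [0.88]), whereas the ligand Jag1 (-0.93 ± 0.20 [-0.82]) and the DNA-binding factor Rbpj (-1.17 ± 0.14 [-0.76]) fell.

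C/EBP and adipogenic genes rose more often than they fell, with 11 of 36 higher and 2 lower, and 10 higher and 0 lower within slide 2. Fabp4, a fatty acid carrier of fat cells, rose by 2.04 ± 0.14 [1.34] and Plin4, a lipid droplet coat protein, by 1.6 ± 0.12 [0.97]. Among 26 genes of fatty acid oxidation, 2 rose, Pdk4 and the acyl-CoA thioesterase Acot1 (0.99 ± 0.13 [0.64]), and 0 fell by limma, with 4 higher and 2 lower at an unadjusted p under 0.05. Glycolysis, glucose transport and hypoxia genes had 8 of 32 higher and 0 lower by limma, with 9 and 0 at that unadjusted level, and 7 and 0 with all 3 vehicle arrays. The insulin-responsive glucose carrier Slc2a4 (1.64 ± 0.12 [1.03]) and the hypoxia-induced genes Ankrd37 (1.36 ± 0.12 [0.73]), Ndrg1 (1.29 ± 0.10 [0.85]), Bnip3 (1.13 ± 0.10 [0.81]) and adrenomedullin, Adm (1.06 ± 0.10 [0.82]), rose.

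Sterol genes gave 2 that rose and 4 that fell of 36 (5.56% and 11.1%, against 5.42% and 6.79% of all genes). Ch25h, which makes an oxysterol, lay at 1.26 and 1.24 on vehicle replicates 2 and 3, -1.03 on vehicle 1 and -1.47, -1.37 and -1.51 on Dex, with vehicle 1 just above the Dex arrays. Its change was -2.7 ± 0.085 (adjusted p = 1.3e-07) without vehicle 1 and -1.94 ± 0.47 (adjusted p = 0.12) with it. The other named members moved by under 1 on the log2 scale: the SREBP escort Scap (0.62 ± 0.15 [0.43]) and the oxysterol receptor Nr1h3 (0.48 ± 0.12 [0.34]) rose, and the exporter Abcg1 (-0.78 ± 0.17 [-0.63]) and the SREBP retention factor Insig1 (-0.43 ± 0.10 [-0.34]) fell. Within slide 2, 0 of the list rose and 1 fell, with these 4 not called. In amino acid metabolism 5 of 35 rose and 0 fell by limma, with 9 and 3 at an unadjusted p under 0.05. After Glul came proline dehydrogenase Prodh (0.88 ± 0.15 [0.56]), the branched-chain transaminase Bcat2 (0.74 ± 0.17 [0.48]), the lysine-degrading Aass (0.69 ± 0.10 [0.57]) and cystathionine synthase Cbs (0.52 ± 0.14 [0.31]).

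Clock genes moved in both directions. Of 23, 6 rose and 3 fell, and 5 rose and 3 fell within slide 2. Per1 and Per2 (1.26 ± 0.11 [0.77]), Cry2 (1.04 ± 0.11 [0.68]), all repressors of the CLOCK complex, and Nfil3 (1.68 ± 0.11 [1.05]), a repressor of D-box genes, rose, and Nr1d2, the nuclear receptor REV-ERB beta, fell (-0.68 ± 0.097 [-0.33]). Metallothioneins, zinc and iron genes had 7 of 22 higher and 3 lower. The metal-binding Mt2 (3.69 ± 0.13 [2.53]) and Mt1 (2.96 ± 0.20) rose with the zinc importer Slc39a14 (0.72 ± 0.086 [0.56]).

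Heat shock proteins had 7 of 21 genes that rose and 0 that fell by limma (10 and 0 at an unadjusted p under 0.05), with a median of 0.31. Small heat shock proteins and cochaperones led the calls: Hspb7 (1.41 ± 0.15 [0.93]), Hspb1 (1.3 ± 0.13 [0.83]), Hspb8 (1.12 ± 0.12), alphaB-crystallin, Cryab (0.72 ± 0.11 [0.41]), and the cochaperone Dnajb4 (0.99 ± 0.10 [0.74]). Hspb1 lay at 4.71 and 4.63 on vehicle replicates 2 and 3, 6.09 on vehicle 1 and 5.83, 5.9 and 6.18 on Dex. Within slide 2, 5 of the list rose and 0 fell. Oxidative stress and glutathione genes gave 6 that rose and 2 that fell of 35, led by Gclc, which limits glutathione synthesis (1.93 ± 0.11 [1.3]), the plasma glutathione peroxidase Gpx3 (1.02 ± 0.14 [0.84]) and the peroxiredoxin Prdx6 (0.61 ± 0.12 [0.41]). In the integrated stress and unfolded protein response 0 of 29 rose and 2 fell by limma, with 1 and 3 at an unadjusted p under 0.05; they were Trib3 (-0.65 ± 0.13 [-0.51]) and Ddit3 (-0.49 ± 0.12 [-0.38]). Among 35 autophagy and lysosome genes 2 rose and 0 fell by limma, with 10 and 1 at that unadjusted level. These were the ubiquitin ligases Trim63 (2.13 ± 0.16) and Fbxo32 (1.09 ± 0.15 [0.65]), known from glucocorticoid-induced muscle wasting.

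DNA replication genes leaned lower by small amounts. Of 33, 6 fell and 1 rose, with a median of -0.19 (-0.18 with all 3 vehicle arrays, where 2 were lower and 0 higher at an unadjusted p under 0.05), and within slide 2, 1 fell and 1 rose. Rfc3, a subunit of the clamp loader, lay at -0.29 and -0.2 on vehicle replicates 2 and 3, -1.27 on vehicle 1 and -0.96, -0.87 and -1.02 on Dex. Vehicle replicates 2 and 3 lay above the Dex arrays and vehicle 1 below them, and the change was -0.7 ± 0.11 [-0.36] (adjusted p = 0.00229). The polymerase subunit Pola1 (-0.49 ± 0.11 [-0.29]) and the helicase subunits Mcm3 (-0.47 ± 0.12 [-0.35]) and Mcm4 (-0.38 ± 0.092 [-0.25]) fell, and Rrm1, a subunit of ribonucleotide reductase, rose (0.34 ± 0.081 [0.15]); none of these 4 was called within slide 2. Of 34 mitotic genes 1 rose, Ube2c (0.46 ± 0.12 [0.19]), and 0 fell by limma, with 4 and 2 at an unadjusted p under 0.05. In the G1 list 7 of 39 rose and 4 fell, with the Cdk inhibitor Cdkn1c (0.89 ± 0.11 [0.45]) and the stress protein Gadd45g (0.81 ± 0.13 [0.57]) higher and its relative Gadd45a lower (-1.43 ± 0.15 [-1.05]). Mycn, a growth-promoting transcription factor, was not well above background on any Dex array and was at least 2.1-fold lower there, but another probe, which a stricter filter on dim probes selects, changed by 0.05.

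Apoptosis regulators gave 2 that rose and 6 that fell of 29, and 2 and 2 within slide 2. Bcl2l1, which encodes the survival protein Bcl-xL, lay at 1.37 and 1.36 on vehicle replicates 2 and 3, 2.46 on vehicle 1 and 2.72, 2.43 and 2.72 on Dex. Its change was 1.25 ± 0.11 [0.89] (adjusted p = 6.45e-05), and the death-promoting Pmaip1 also rose (1.04 ± 0.16 [0.71]). The survival gene Bcl2 fell (-0.98 ± 0.15 [-0.57]) but was not called within slide 2.

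Vasoactive peptides and receptors had 8 of 28 genes higher and 3 lower. Sphk1, which makes sphingosine 1-phosphate, rose (2.42 ± 0.15 [1.54]) and its receptor S1pr1 fell (-1.21 ± 0.16 [-0.69]). The vasopressin receptor Avpr1a rose (1.06 ± 0.10 [0.61]), and the ATP-gated channel P2rx7 fell (-0.86 ± 0.14 [-0.5]). Of 35 ion channels, pumps and exchangers 5 rose and 6 fell, with the potassium channel Kcnk1 (2.35 ± 0.13 [1.45]) and the channel subunit Kcne4 (1.39 ± 0.20 [1.0]) higher. Semaphorins, Eph receptors and axon guidance genes gave 2 that rose and 5 that fell of 37 (5.41% and 13.5%, against 5.42% and 6.79% of all genes). Among them were the semaphorin receptor Plxna2 (1.02 ± 0.16 [0.73]) and the guidance ligand Slit2 (-0.58 ± 0.09 [-0.45], with 2 of its 3 kept probes lower).

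Hox genes, which set position along the body axis, fell where they were called: 10 of 32 fell and 0 rose by limma, with 13 lower and 5 higher at an unadjusted p under 0.05. The median was -0.21 (-0.13 with all 3 vehicle arrays), and with normexp 6 fell and the median was 0.03, of the other sign. Hoxb2 lay at -0.41 and -0.35 on vehicle replicates 2 and 3, -1.28 on vehicle 1 and -1.33, -1.3 and -1.5 on Dex, a change of -1.0 ± 0.089 [-0.7] (adjusted p = 8.33e-05). Hoxb5 (-0.65 ± 0.11 [-0.56]) and Hoxb6 (-0.69 ± 0.086 [-0.48], with 1 of its 2 kept probes lower) fell, and Hoxb8 was not well above background on vehicle replicates 2 and 3 or on Dex, so no fold is given. Within slide 2, 4 fell and 0 rose. Of 51 other lineage transcription factors 4 rose and 6 fell (7.84% and 11.8%, against 5.42% and 6.79% of all genes). Meox1 (-1.89 ± 0.14 [-1.28]) and Meox2 (-1.08 ± 0.085 [-0.68]), homeobox factors of the somites, and Snai2 (-0.85 ± 0.17 [-0.52]) were lower and Snai1 was higher (0.88 ± 0.14 [0.46]). Neither the 30 ribosome biogenesis genes nor the 32 respiratory chain genes gave a call by limma, with 0 higher and 1 lower in each at an unadjusted p under 0.05.

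With all 3 vehicle arrays the lists can be read only at an unadjusted p under 0.05, where 7.12% of all genes were higher and 9.52% lower. At that level the MAP kinase and immediate early list had 2 higher and 9 lower of 29, the growth factor families 6 and 12 of 39, the Wnt list 3 and 7 of 33, the Notch list 1 and 4 of 18, the interferon list 2 and 6 of 33, the Hox list 2 and 12 of 32 and the axon guidance list 2 and 9 of 37. The adipogenic list had 7 higher and 3 lower of 36, the oxidative stress list 8 and 3 of 35, the metal list 7 and 2 of 22, the clock list 6 and 3 of 23, the vasoactive list 6 and 2 of 28, the matrix glycoproteins 7 and 1 of 36, the heat shock list 5 and 0 of 21, amino acid metabolism 5 and 0 of 35 and the contractile list 4 and 0 of 23. Smaller or even splits were those of the TGF-beta pathway with 8 and 7 of 43, cAMP signalling with 6 and 7 of 37, the proteases with 5 and 8 of 33, the sterol list with 5 and 7 of 36, the channels with 6 and 7 of 35, the integrins with 4 and 5 of 28 and the hyaluronan list with 3 and 5 of 26. The NF-kappaB list had 1 and 4 of 24, the prostaglandin pathway 5 and 4 of 19, the interleukin 6 family 2 and 3 of 16, the interleukin 1 and TNF families 3 and 3 of 19, the insulin axis 4 and 3 of 23, receptor and chaperone genes 2 and 1 of 23, fatty acid oxidation 3 and 1 of 26, the stress response 2 and 3 of 29, autophagy 2 and 1 of 35, the lineage factors 4 and 8 of 51 and ribosome biogenesis 0 and 2 of 30. The mitotic list had 1 and 1 of 34, apoptosis 2 and 3 of 29, G1 phase 3 and 6 of 39 and the respiratory chain 0 and 0 of 32.

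Counts of calls within slide 2 that are not given above were as follows. Fewer genes were called within slide 2 than in the whole comparison. List counts within slide 2, here and above, therefore stand beside the smaller totals given for slide 2. The NF-kappaB list had 2 higher and 3 lower, the interferon list 1 and 4, the interleukin 6 family 2 and 3, cAMP signalling 5 and 5, the hyaluronan list 2 and 2, the proteases 2 and 3, the integrins 2 and 3, the insulin axis 4 and 2, the TGF-beta pathway 3 and 2, the Wnt list 5 and 4 and the Notch list 2 and 1. Glycolysis had 5 and 0, fatty acid oxidation 2 and 0, amino acid metabolism 3 and 0, the metal list 6 and 2, oxidative stress 3 and 0, the stress response 0 and 2, autophagy 2 and 0, G1 phase 3 and 2, mitosis 0 and 0, the vasoactive list 3 and 1, the channels 4 and 2, axon guidance 1 and 2 and the lineage factors 3 and 4.

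Of the named genes called with vehicle replicates 2 and 3, 140 of 221 kept their call under all 19 settings tried, and the smaller changes made up most of the rest. Beside the genes already named as lost, Adam19, Bcat2, Cbs, Gadd45g, Hoxb5, Ifih1, Jag1, P2rx7, Plat, Prdx6, Snai2 and Ube2c were not called within slide 2. Dkk1, Fgf5, Hoxb5, Il1r2, Cbs, Kdr and Lingo4 were not called with normexp, and Dnajb4, Hoxb6, Il1rap, Mcm3, Slit2 and Vcan were not called when the kept probes of a gene were averaged. Trim63 was not called with a stricter filter on dim probes, where another probe, with a change of 0.17, stands for the gene. With the fit on WT arrays alone, Ddit3 and Vcan were not called.

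Most of the response lay below the large changes. Of the 1128 genes that rose, 75 changed at least 4-fold, 310 from 2-fold to 4-fold, 398 from 1.5-fold to 2-fold and 345 by less. Of the 1414 that fell, 7, 209, 549 and 649 lay in the same ranges, so that 45.9% of the falls and 30.6% of the rises were under 1.5-fold. The median position of vehicle 1 was 1.01, 1.03, 1.07 and 1.14 for the rises and 0.95, 0.87, 0.87 and 0.92 for the falls, from the largest range to the smallest. Vehicle 1 was nearer the Dex level than the vehicle level for 1034 of 1127 rises with a position (91.7%) and 1105 of 1414 falls (78.1%).

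Between 2-fold and 4-fold the smallest p-values among the rises belonged to Vdr, Map3k6, Csrnp1 and Abra. Vdr, the vitamin D receptor, went from -0.37 and -0.38 to 1.12, 1.08 and 1.17 with vehicle 1 at 1.37, above all Dex arrays. Its change was 1.5 ± 0.078 [0.92] (adjusted p = 3.28e-06), and those of the kinase Map3k6, the nuclear protein Csrnp1 and the SRF activator Abra were 1.85 ± 0.092, 1.99 ± 0.10 [1.27] and 1.97 ± 0.11 [1.16]. From 1.5-fold to 2-fold, Acvr1b, a type I activin receptor (0.93 ± 0.09 [0.49]), and Agfg2 (0.99 ± 0.093 [0.57]) stood beside Col11a1 and Isg20. Below 1.5-fold the smallest p-values among the rises included those of Cnn3, an actin-binding calponin (0.53 ± 0.079 [0.4]), Lin52 of the DREAM complex (0.56 ± 0.084 [0.3]), and Wdfy2 of endosomes (0.56 ± 0.08 [0.26]). Among falls of that size they included those of Apol9b (-0.52 ± 0.082 [-0.46]), Ttc39b (-0.58 ± 0.082 [-0.4]) and Zfp647 (-0.56 ± 0.082 [-0.31]). With the WT arrays alone in the fit, Cnn3, Lin52, Wdfy2, Pias1, Apol9b and Zfp647 were not called.

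**Figure D3:**
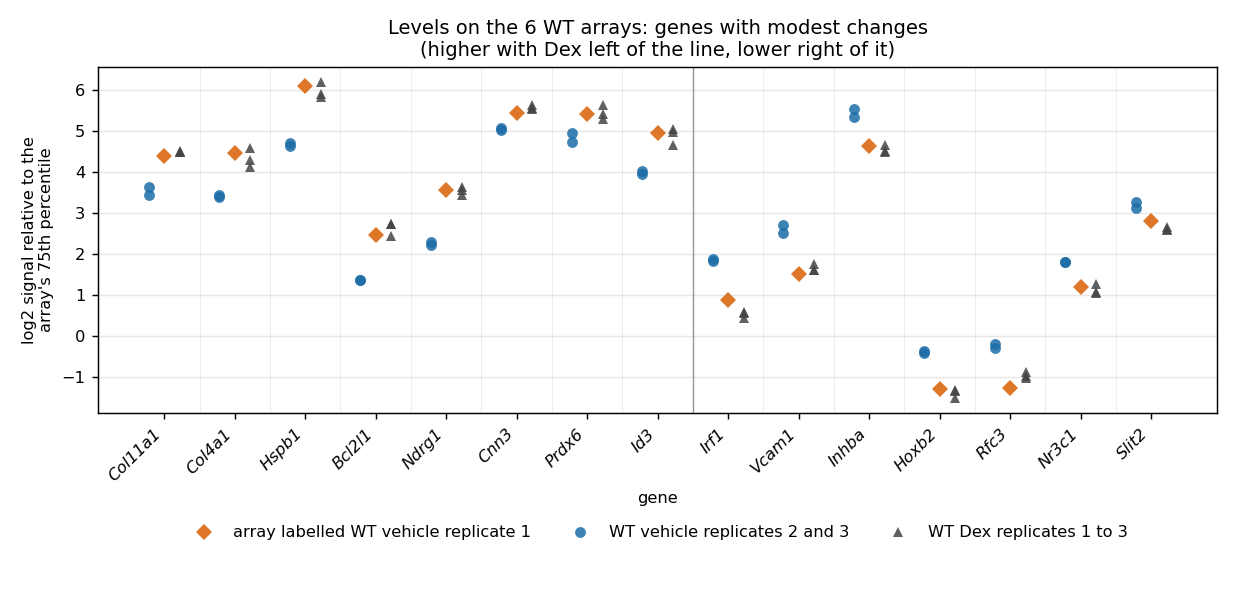
Levels (log2 intensity over the array's 75th percentile, vertical axis) of 15 genes with smaller changes on the 6 WT arrays, with the same symbols for vehicle 1 (orange diamond), vehicle replicates 2 and 3 (blue circles) and Dex replicates 1 to 3 (grey triangles). Genes that rose without vehicle 1, such as Col11a1 and Cnn3, are on the left and genes that fell, such as Irf1, Rfc3 and Nr3c1, on the right; the triangles lie apart from the circles in each.

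The size of the WT change went with the share of genes that were also called in GR-C3 cells. Their arrays are shared with no WT group, but both sets of calls use the same estimate of spread and are not independent. The median GR-C3 change also shrank, from 1.32 in WT rises of at least 4-fold to 0.12 in those under 1.5-fold. Smaller changes pass a fixed threshold less often. In GR-C3 cells Dex raised 430 genes (2.06%) and lowered 286 (1.37%) in the same fit. Both genotypes raised 305 genes, which is 27% of the WT rises and 70.9% of the GR-C3 rises, and lowered 157, which is 11.1% and 54.9%. Of the WT rises of at least 4-fold, 61 of 75 (81.3%) rose in GR-C3 cells too, and the share was 50% from 2-fold to 4-fold, 16.6% from 1.5-fold to 2-fold and 6.67% below. For the falls the shares were 42.9%, 28.7%, 9.11% and 6.78%. The GR-C3 change had the sign of the WT change for 1006 of the 1128 rises (89.2%) and 1287 of the 1414 falls (91%), and its median in WT rises of 2-fold to 4-fold was 0.56. The share of equal signs over all genes was not computed. How far the shares of equal signs are particular to the called genes therefore cannot be read from them.

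**Figure D4:**
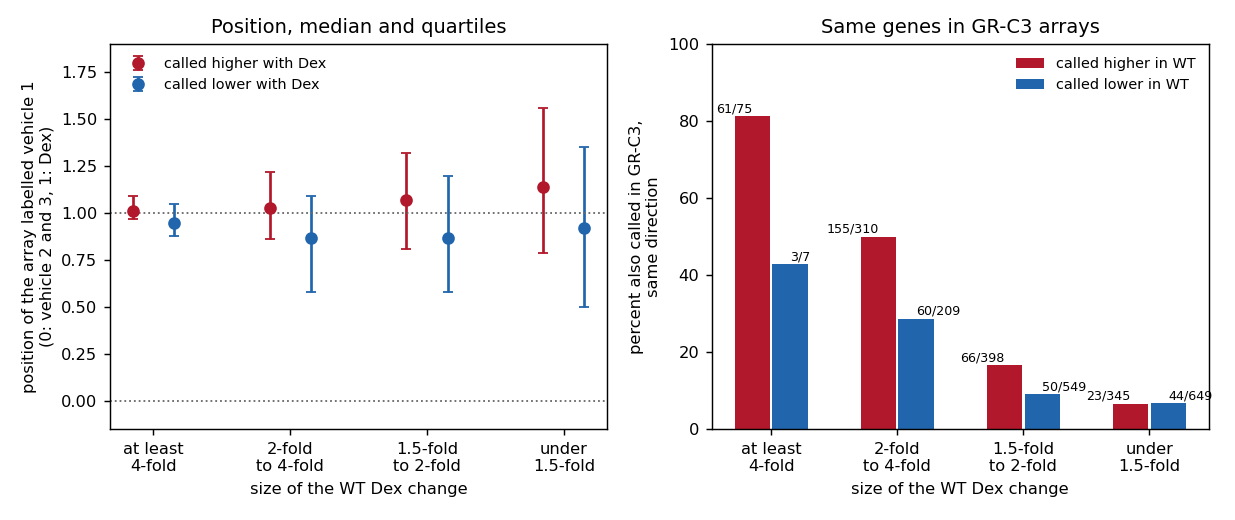
Genes called with vehicle replicates 2 and 3, split by direction and by size of change. Left, position of vehicle 1 between the vehicle level (0) and the Dex level (1), as median and quartiles, with medians from 0.87 to 1.14; right, percent of the genes called in the same direction in GR-C3 cells, from 81.3% of rises of at least 4-fold to 6.67% of the smallest rises.

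Of the glucocorticoid-induced list, 23 rose and 1 fell in GR-C3 cells, with a median change of 0.77. Per1 changed by 1.92 ± 0.11 there (adjusted p = 1.71e-05) and Klf9 by 1.1 ± 0.10 (adjusted p = 0.000315), against 2.14 ± 0.12 and 1.66 ± 0.11 in WT. The WT and GR-C3 arrays also differed in sex-linked genes, with Y-linked Ddx3y at 1.26 to 1.92 on WT arrays and -8.92 to -6.46 on GR-C3 arrays and Xist at -4.57 to -4.05 and -2.88 to -2.53, so that the allele and this difference between the cultures cannot be told apart in what follows. Several named genes, which were chosen on their WT change, had a smaller change in GR-C3 cells by the test of the difference itself. Slc45a3 changed by 1.75 ± 0.13 there and Tcim by -0.05 ± 0.098, against 5.39 ± 0.15 and 2.58 ± 0.11 in WT (adjusted p of the difference = 6.55e-05 for both). Has2, at -3.06 ± 0.15 in WT, changed by -1.34 ± 0.13 in GR-C3 cells (adjusted p of the difference = 0.00414). The difference passed the test for 238 genes with 11 arrays, of which 214 changed by less and 24 by more in GR-C3 cells in absolute size, and for 0 with all 12, where 1275 had an unadjusted p under 0.05 by limma. In opposite directions in the genotypes were 4 genes, among them Kdr, a VEGF receptor (-0.51 ± 0.12 [-0.37] in WT and 0.59 ± 0.10 in GR-C3), and Abcc9, a potassium channel subunit (-0.42 ± 0.12 [-0.1] and 0.52 ± 0.11). Neither was called in WT within slide 2, and the WT change of Abcc9 turned to 0.02 with normexp and was not called under 14 of 19 settings.

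**Figure D5:**
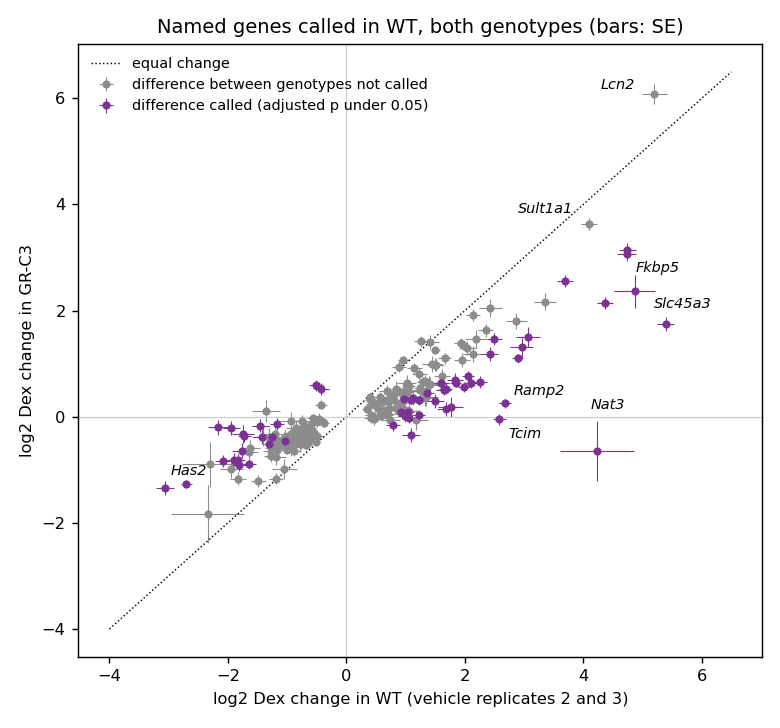
Dex change in WT (horizontal axis, log2, vehicle replicates 2 and 3) against Dex change in GR-C3 cells (vertical axis, log2) for the named genes, with standard errors as bars. Purple points are genes whose difference between genotypes passed the test; among them Slc45a3 lies at 5.39 in WT and 1.75 in GR-C3 cells and Tcim at 2.58 and -0.05.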

How the data were processed

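RNA of WT and GR-C3 MEFs was hybridised to one-colour Agilent arrays. The deposited scanner files hold intensity values on a linear scale, background-subtracted by the authors with Agilent Feature Extraction 9.5 per the submitters' processing notes, and unscaled. The authors' series matrix repeated these values (tolerance 1e-09, column medians 77.9 to 154). Probe positions are in mm7 per the file headers, and no genome of that build was used here.

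Control spots and outlier calls were left out. Probes that the scanner called well above background throughout at least 1 group were kept (30922 of 41174), and the kept probe with the highest mean stood for its gene. Names came from a RefSeq table (22951 probes by accession, 6659 by symbol, 3109 by synonym; 8455 kept the file's name). The 75th percentile of processed intensity was 882.9 to 1815. Log2 levels entered limma 3.58.1 (R 4.3.3; lmFit over the 4 groups, eBayes) with Benjamini-Hochberg adjustment. On simulated data over 20829 genes, 64% of genes changed by 1 on the log2 scale were recovered with 12 arrays and 67% with 11. Each simulated array was drawn independently with a normal spread, so no vehicle array lay at the Dex level. The simulation therefore does not show what keeping vehicle 1 does to the calls. The smallest p of an exact permutation test is 0.1 for 3 arrays against 3 and 0.2 for 3 against 2.

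Where no array of a group measured a gene above background, the fold is a bound ("at least N-fold"). On each array of the dim group the probe was set no lower than the dimmest probe called above background there, and the mean of these values was compared with the other group's mean. Named genes were those called with 12 arrays without overlap, the largest changes, the smallest p in each range of fold and up to 5 called members of each list, and some of them are not reported here. The members, the 44 pathway and 9 marker lists, and the choice to leave out vehicle 1 were made with earlier results of these data known. Alternatives covered normalization, background, filter, probe choice, the arrays in the fit, slide and replicate blocks. The sums of marker lists and vehicle 1 as a group of its own were chosen after seeing the data. R, limma, pandas 2.3.3 and matplotlib 3.10.9 were used.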

Additional observations from a re-analysis of the deposited data

Results flagged for a closer look

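Among the named genes, 25 had a Dex change that differed between genotypes with an adjusted p under 0.01, by limma's test of the difference over all genes with vehicle 1 left out. The named genes were chosen on their WT change, and these 25 changed by less, in absolute size, in GR-C3 cells. Of all 238 genes whose difference had an adjusted p under 0.05, 214 changed by less and 24 by more. The allele and the difference in sex-linked genes between the cultures cannot be told apart here. With all 12 arrays the difference passed the 0.05 threshold for 0 genes, and 1275 had an unadjusted p under 0.05. The values are the GR-C3 change minus the WT change on the log2 scale.

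Genes with the largest WT rises gave -3.64 ± 0.20 for Slc45a3 (5.39 in WT, 1.75 in GR-C3, adjusted p = 6.55e-05), -1.60 ± 0.19 for Fam107a (4.74 in WT, 3.14 in GR-C3, adjusted p = 0.00562), -1.65 ± 0.21 for Fkbp5 (4.73 in WT, 3.07 in GR-C3, adjusted p = 0.00644) and -2.24 ± 0.18 for Rgcc (4.37 in WT, 2.14 in GR-C3, adjusted p = 0.000574). For genes of Wnt, Notch and receptor signalling the differences were -2.63 ± 0.15 for Tcim (2.58 in WT, -0.05 in GR-C3, adjusted p = 6.55e-05), -1.79 ± 0.13 for Notch4 (2.89 in WT, 1.10 in GR-C3, adjusted p = 0.000454), -2.43 ± 0.13 for Ramp2 (2.68 in WT, 0.25 in GR-C3, adjusted p = 6.55e-05) and -0.92 ± 0.13 for Wnt11 (1.23 in WT, 0.31 in GR-C3, adjusted p = 0.00988). Kinases, their regulators and transcription factors gave -1.29 ± 0.14 for Sgk1 (2.06 in WT, 0.77 in GR-C3, adjusted p = 0.00267), -1.21 ± 0.12 for Map3k6 (1.85 in WT, 0.64 in GR-C3, adjusted p = 0.00242), -1.19 ± 0.14 for Trib1 (1.22 in WT, 0.04 in GR-C3, adjusted p = 0.00565), -1.61 ± 0.16 for Cebpd (2.25 in WT, 0.65 in GR-C3, adjusted p = 0.00238), -1.42 ± 0.14 for Csrnp1 (1.99 in WT, 0.56 in GR-C3, adjusted p = 0.00169) and -1.16 ± 0.15 for Nfil3 (1.68 in WT, 0.53 in GR-C3, adjusted p = 0.00697). The other genes that rose in WT gave -1.45 ± 0.15 for Rgs2 (2.10 in WT, 0.64 in GR-C3, adjusted p = 0.00231), -0.91 ± 0.11 for Sesn1 (1.22 in WT, 0.31 in GR-C3, adjusted p = 0.00654), -1.09 ± 0.13 for Avpr1a (1.06 in WT, -0.03 in GR-C3, adjusted p = 0.00644), -1.54 ± 0.20 for Fam89a (1.68 in WT, 0.14 in GR-C3, adjusted p = 0.00675) and -1.44 ± 0.20 for Fbxo32 (1.09 in WT, -0.35 in GR-C3, adjusted p = 0.00965).

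The genes that fell in WT gave positive differences, which were 1.72 ± 0.20 for Has2 (-3.06 in WT, -1.34 in GR-C3, adjusted p = 0.00414), 1.43 ± 0.12 for Ch25h (-2.70 in WT, -1.27 in GR-C3, adjusted p = 0.000601) and 1.96 ± 0.22 for Cxcl5 (-2.17 in WT, -0.20 in GR-C3, adjusted p = 0.00398) and, for the rest, 1.26 ± 0.16 for Ccl2 (-2.09 in WT, -0.83 in GR-C3, adjusted p = 0.00739), 1.35 ± 0.16 for Fgf5 (-1.72 in WT, -0.37 in GR-C3, adjusted p = 0.00451) and 1.73 ± 0.20 for Rassf9 (-1.94 in WT, -0.22 in GR-C3, adjusted p = 0.00454).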

How the results depend on the processing

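With all 3 vehicle arrays the calls (8 higher, 17 lower) became 18 and 26 with quantile normalization, 19 and 11 with normexp, 9 and 15 with a stricter filter, 3 and 19 with the mean of kept probes, and 0 and 0 by limma with no filter on dim probes (3489 at an unadjusted p under 0.05) or with WT arrays only (2053). The slide block, which is the comparison within slide 2, gave 601 and 418. Leaving out 1 array in turn gave 0 to 1128 higher and 0 to 1414 lower. With vehicle replicates 2 and 3 the calls (1128 and 1414) became 1267 and 1664 with quantile normalization, 1026 and 878 with normexp, 894 and 989 with no filter, 665 and 591 with WT arrays only, and 601 and 418 with the slide block. Leaving out 1 array gave 563 to 2242 higher and 391 to 2177 lower. Of the 2542 main calls, 2449 were shared with quantile normalization, 1793 with normexp and 1147 with WT arrays only. Except for fewer arrays or other genes tested, the cause was not tested.

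The replicate block gave 0 and 0 calls with 12 arrays by limma (3645 at an unadjusted p under 0.05) and 1368 and 1687 with 11. Over 20704 genes, deviations of same-numbered vehicle and Dex arrays correlated at -0.22, 0.01 and 0 in WT. In GR-C3 cells these correlations were 0.1, -0.08 and 0.17, small and of both signs, which shows no clear pairing by number. The WT deviations include the vehicle array that stood apart from its group, so they cannot decide whether the numbers pair the WT samples.

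Of the 221 named genes called with 11 arrays, 140 were called in the same direction under all 19 settings. Directions turned with normexp for Ccl4 (0.00), Spata5l1 (0.13) and Tdrd9 (0.09) with 12 arrays and for Abcc9 (0.02), Hoxb8 (0.07), Nrarp (0.08) and Tdrd9 (0.06) with 11, for Mycn with a stricter filter (0.05), and for Nrip1 (-0.02) and Piezo2 (0.14) with the mean of kept probes. Ccl4, Spata5l1, Tdrd9, Hoxb8 and Nrarp were not well above background on any Dex array, whereas Abcc9 was on all WT arrays. Why these directions turned was not tested. Quantile normalization shifted the median of all genes to 0.009 and normexp to 0.085, from 0.022.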

Other observations

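Vehicle 1 also differed from both other sets of WT arrays. As a group of its own, by limma, it had 1908 genes higher and 1901 lower than vehicle replicates 2 and 3, and 530 higher and 653 lower than the Dex arrays. For 943 genes it was apart from both in the same direction, 401 higher and 542 lower. Between Dex and vehicle replicates 2 and 3, 95 of the 943 were called and 848 were not. Over all genes 12.2% were called there, so the 943 were called about as often as genes in general. The genes named here were chosen after their values were seen. Rian, an imprinted noncoding RNA, lay at 3.89 on vehicle 1, at -1.62 and -1.48 on vehicle replicates 2 and 3 and at -1.71, -2.11 and -2.48 on Dex. Cdkn2a, the locus of the cell cycle inhibitors p16 and p19Arf, lay at 4.14 on vehicle 1, at 1.30 and 1.40 on the other vehicle arrays and at 1.22, 1.69 and 1.24 on Dex. Lrp5, a Wnt coreceptor, lay at 1.67 on vehicle 1, at -1.88 and -1.62 on the other vehicle arrays and at -1.62, -0.95 and -1.22 on Dex.

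The gene lists covered part of the response. Of 1300 genes in the 44 lists, 343 were called with vehicle replicates 2 and 3, and 2199 called genes were in none. With genes cut into 4 equal classes of mean level, from the dimmest to the brightest, 2.53%, 5.55%, 7.61% and 5.97% of genes rose and 5.22%, 8.64%, 9.7% and 3.59% fell.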
